A study of Mus musculus with 58 samples.

Results

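Ribosome footprints, the short stretches of mRNA that ribosomes shield from nuclease, were counted per gene in the striatum of 3 mice with a hemideletion of 3 genes (3g del/+) and 3 wild-type mice (wt) of the same line. These 6 libraries, of the 58 in the series, were chosen by their sample labels, and no measured value entered the choice. The 3g del/+ mice carry, on 1 of the 2 chromosomes, CRISPR/Cas9 mutations that place a premature stop codon in each of Taok2, Sez6l2 and Mvp. Animals are numbered here from 1 to 3 within each genotype, in the order of their label numbers. All were males of strain B6129S by the labels, and no age is given for these libraries. RNA from the same 6 striatal lysates was sequenced beside the footprints, and 7 footprint libraries (3 del/+ and 4 wt males) of the 16p11.2 line, in which the whole gene-rich region holding these 3 genes is missing from 1 chromosome, serve here as a comparison. The mutations are carried by the whole animal, not by striatal cells alone.

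Taok2 is a kinase of the TAO family that acts on stress-activated MAP kinase cascades and on the cytoskeleton of growing neurites. Sez6l2 is a neuronal membrane protein of the SEZ6 family, and Mvp is the main protein of the vault particle, a large ribonucleoprotein of the cytoplasm. A transcript with a premature stop codon can be degraded by nonsense-mediated decay, in which Upf1 and the SMG proteins act on ribosomes that stop too early. A footprint count depends both on how much mRNA is present and on how many ribosomes sit on it, and RNA of the same lysate separates the first from the sum of both. In pieces of tissue, fewer cells of a type and fewer footprints per cell cannot be told apart.

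The wt footprint libraries held 342052, 422918 and 371770 counts in animals 1 to 3, and the del/+ libraries 527917, 678130 and 584622. Each del/+ library was therefore deeper than each wt library, and depth and genotype cannot be told apart within these 6 libraries. Thinned at random to the smallest total, the wt libraries had a count for 13839 to 14483 genes and the del/+ libraries for 13683 to 14017. Levels are given as CPM, counts divided by the library total and scaled to a common size with TMM factors, and since they are not divided by gene length they are compared between libraries, not between genes. The library of wt animal 1 stood apart. Its median correlation with the other footprint libraries of the line was 0.803, against 0.877 for wt animal 3 and 0.897 to 0.912 for the other 4, and 29 genes were more than 8-fold higher in it than in any other library of the line. Such genes numbered 4 in wt animal 3, 1 in del/+ animal 3 and 0 in the other 3. Values without wt animal 1 are given where its absence changed a call, and for some other genes whose value it moved. The tissue's own markers were well covered, with mean levels of 1204 CPM for Penk, 207 CPM for Adora2a, 170 CPM for Drd2 and 159 CPM for Drd1, and the 10 choroid plexus markers summed to 28.7 to 55.8 CPM in every library.

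Sez6l2 footprints were lower in every del/+ library than in every wt library. The wt libraries had 551, 553 and 412 CPM (192, 205 and 146 counts, in the order of the animals), and the del/+ libraries 275, 287 and 281 CPM (122, 187 and 156 counts). The groups did not overlap. The mean was 281 ± 6.07 CPM in del/+ (SD, n = 3) against 505.5 ± 81.0 CPM in wt (SD, n = 3), or 55.5% of wt. The log2 fold change was -0.85 with a standard error of 0.22 and a 95% interval of -1.32 to -0.37. Its unadjusted p was 0.00148 and its adjusted p over all genes was 0.399 in edgeR's quasi-likelihood test, so that the gene did not pass the threshold, whereas DESeq2 called it (adjusted p 0.0201). The 2-sided exact permutation test gave 0.1, the smallest p that 3 against 3 allows. Over 20 draws of thinned counts the log2 fold change of Sez6l2 lay between -1.002 and -0.76, and it was -0.78 without wt animal 1.

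Sez6l2 was also lower in the RNA of the same lysates, at 55.8 ± 2.55 CPM in del/+ against 80.4 ± 1.95 CPM in wt (SD, n = 3 each), or 69.5% of wt. Its RNA log2 fold change was -0.53 (SE 0.09, edgeR adjusted p 0.109). The footprint change minus the RNA change was -0.29 on the log2 scale, with an unadjusted p of 0.188 in edgeR's test of the interaction of genotype and assay (0.218 with the animal as a block), so a separate change of ribosome load was not shown. In the 16p11.2 line Sez6l2 footprints were 134 ± 11.9 CPM in del/+ (SD, n = 3) and 261 ± 55.7 CPM in wt (SD, n = 4), a log2 fold change of -0.97 (edgeR adjusted p 0.0671). The changes in the 2 lines differed by -0.12 on the log2 scale (edgeR unadjusted p 0.689).

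Taok2 footprints overlapped between the groups. The wt libraries had 218, 151 and 195 CPM and the del/+ libraries 182, 152 and 175 CPM, from 56 to 99 counts each. The mean was 170 ± 15.9 CPM in del/+ and 188 ± 34.02 CPM in wt (SD, n = 3 each), or 90.2% of wt. The log2 fold change of -0.15 had a 95% interval of -0.62 to 0.32 (edgeR adjusted p 0.904), and it was -0.03 without wt animal 1. That interval excludes the value of -1 that loss of 1 of 2 alleles without other change would give. Taok2 RNA in the same lysates was 95.3 ± 9.67 CPM in del/+ and 103 ± 8.42 CPM in wt (SD, n = 3 each). Their log2 fold change was -0.11 (edgeR adjusted p 0.962). In the 16p11.2 line Taok2 footprints were 63.9 to 71.6 CPM in the 3 del/+ libraries and 120 to 153 CPM in the 4 wt libraries, without overlap, with a log2 fold change of -0.97 (edgeR adjusted p 0.0921). The change in the 16p11.2 line minus that in the 3g line was -0.82 on the log2 scale, with an unadjusted p of 0.0127 and an adjusted p of 0.393 in edgeR's test of the interaction of genotype and line.

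Mvp had too few footprints to be tested. It had 9 counts in the 3 wt libraries (4, 1 and 4) and 13 in the 3 del/+ libraries (4, 2 and 7). The ratio of del/+ to wt was 0.917, from summed counts over summed library totals, and 96.8% of wt as mean TMM-scaled CPM. The 95% interval of the former, 0.363 to 2.43, covers counting error only. Neither a loss of 1 allele nor its absence was therefore detectable in footprints at this depth. Mvp RNA was also scarce, with 3.32 ± 0.419 CPM in del/+ animals and 3.50 ± 0.673 CPM in wt animals (SD, n = 3 each).

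**Figure D1:**
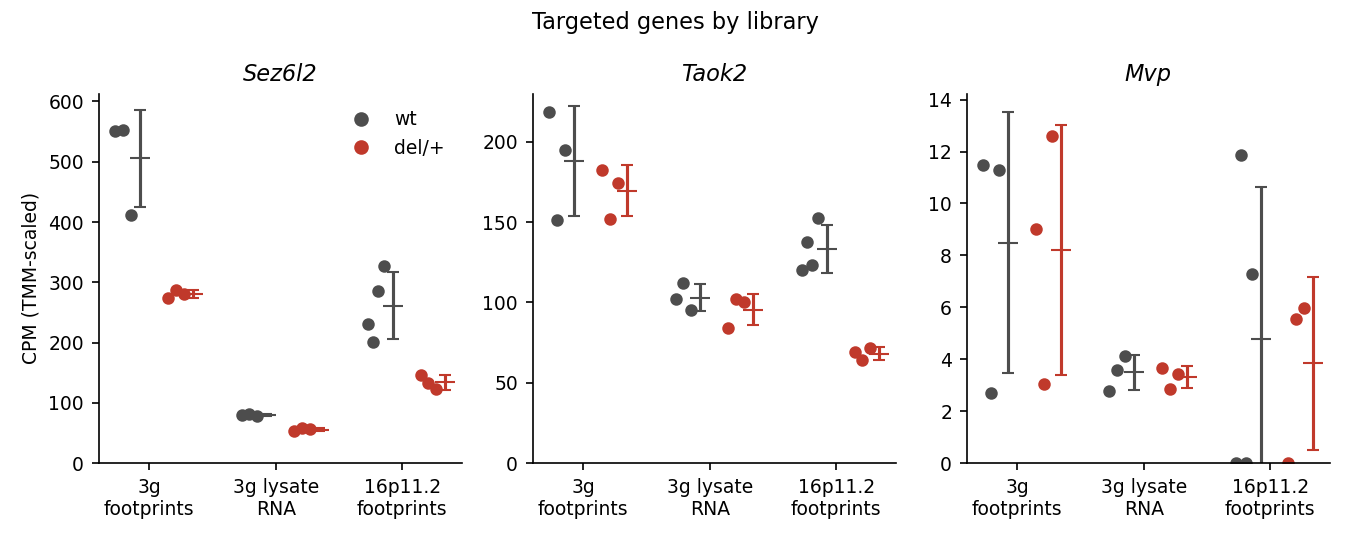
CPM of Sez6l2, Taok2 and Mvp in each library (points), with the group mean and SD beside them, for 3g footprints, 3g lysate RNA and 16p11.2 footprints. Sez6l2 was lower in each del/+ group, Taok2 overlapped between genotypes in the 3g line and did not in the 16p11.2 line, and Mvp reached at most 12.6 CPM.

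The other genes of the 16p11.2 region are intact in the 3g line and deleted on 1 chromosome in the 16p11.2 line. Of 27 such genes in the table, 16 were tested in the 3g footprints and none passed the adjusted threshold. Their median log2 fold change was -0.05 in the 3g line, where that of all 7553 genes tested was -0.01, and -1.10 in the 16p11.2 line. Aldoa, a glycolytic enzyme, was at 347 to 499.4 CPM in wt and 351 to 481 CPM in del/+ libraries. Maz, a zinc-finger transcription factor, was at 197 to 284 CPM in wt and 214 to 248 CPM in del/+. Both had log2 fold changes of -0.05, against -1.25 and -1.09 in the 16p11.2 line, where both were called (edgeR adjusted p 0.0228 and 0.0250). Prrt2, a presynaptic protein, and Cdipt, a phosphatidylinositol synthase, had 3g log2 fold changes of 0.05 and 0.08 and overlapping groups. Mapk3, the kinase ERK1, had 97.2 to 103 CPM in wt and 93.6 to 96.8 CPM in del/+, so that its groups did not overlap although its log2 fold change was only -0.08. Kctd13, an adaptor of a ubiquitin ligase, was at -0.22, and Fam57b and Ypel3 were at 0.33 and 0.45. Tbc1d10b, a regulator of Rab GTPases, had the lowest of the 9 values named here: 67.5 to 118 CPM in wt, 38.3 to 64.8 CPM in del/+, and a log2 fold change of -0.73 (edgeR unadjusted p 0.0275, adjusted p 0.543), which was -0.46 without wt animal 1.

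Across all genes, 1 of 7553 passed an adjusted p under 0.05 (0.0132%), and it was lower in del/+. At an unadjusted p under 0.05, 264 genes were higher in del/+ (3.50%) and 338 were lower (4.48%). With library totals in place of TMM these were 168 and 403, so that the share of higher genes among them was 29.4% in place of 43.9%. All del/+ libraries were above all wt libraries for 520 genes (6.88%) and below them for 485 (6.42%). The median standard error was 0.34 on the log2 scale, and for 3927 of the genes tested (52.0%) the 95% interval lay wholly between -1 and 1. The number of calls moved with the libraries used: it was 24 without wt animal 1, 21 without wt animal 2, 5 without wt animal 3, and 0 without any 1 of the 3 del/+ animals, where 370 to 573 genes still had an unadjusted p under 0.05.

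The called gene was Fzd8, a Frizzled receptor for Wnt ligands. The wt libraries had 1335, 826 and 926 CPM (465, 306 and 328 counts) and the del/+ libraries 351, 270 and 342 CPM (156, 176 and 190 counts). The groups were far apart, with means of 321 ± 44.5 CPM in del/+ and 1029 ± 270 CPM in wt (SD, n = 3 each). The log2 fold change was -1.68 (SE 0.25, edgeR adjusted p 0.0299), and over 20 thinned draws it lay between -1.77 and -1.56 with adjusted p of 0.0119 to 0.0470. Without wt animal 1 the log2 fold change was -1.45 (edgeR adjusted p 0.00173). Leaving out del/+ animal 1, 2 or 3 gave an adjusted p of 0.197, 0.774 or 0.432 with log2 fold changes of -1.75, -1.57 and -1.73. Fzd8 RNA was scarce and did not pass the test in these lysates, with a mean of 3.95 CPM and a log2 fold change of -0.16 (edgeR adjusted p 0.975). Its footprint level was 171 times its RNA level in CPM, where the median over tested genes was 1.57.

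The lower genes with the next smallest p were Sertad4, Tex52, Olfr1029 and Cdk5rap1. Usp31, which was higher in del/+ and is given below, ranked between Tex52 and Olfr1029. Sertad4 had 1146, 421 and 505.1 CPM in wt and 227, 127 and 151 CPM in del/+ (log2 fold change -2.04, edgeR adjusted p 0.0600). Tex52 had 1410, 1244 and 1538 CPM in wt and 664, 336 and 482 CPM in del/+ (-1.50, adjusted p 0.0782). Olfr1029, an olfactory receptor gene, had 451, 321 and 581 CPM in wt and 151, 136 and 223 CPM in del/+ (-1.40, adjusted p 0.0917). Cdk5rap1, which modifies mitochondrial tRNAs, had 399, 267 and 423 CPM in wt and 158, 166 and 146 CPM in del/+ (-1.21, adjusted p 0.0917). None of these 4 passed the threshold in edgeR's quasi-likelihood test of all 6 libraries. Without wt animal 1 that test called all 4, with log2 fold changes of -1.47 for Sertad4, -1.50 for Tex52, -1.40 for Olfr1029 and -1.14 for Cdk5rap1 (adjusted p 0.00313, 0.00421, 0.00756 and 0.0259). It also called all 4 without wt animal 2, Sertad4 alone of them without wt animal 3, and none without any 1 of the del/+ animals. DESeq2 called all 4, and Kdr as well (adjusted p 0.00688). Kdr, a receptor of VEGF and an endothelial marker, was at 741, 200 and 395 CPM in wt and 176, 149 and 173 CPM in del/+ (-1.43, adjusted p 0.290). The change of Kdr was -0.84 without wt animal 1 and was called without wt animal 2 (-1.78, edgeR adjusted p 0.0306). The RNA of Tex52, Olfr1029, Cdk5rap1 and Kdr averaged only 0.346 to 5.06 CPM, and that of Sertad4 23.5 CPM. For all 5 and Fzd8 the footprint level exceeded the RNA level by 18.3 to 898 times in CPM, a ratio that at most 1.76% of tested genes exceeded.

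The levels of Fzd8 and Tex52 were higher in the smaller than in the larger libraries of both lines. The cut between smaller and larger was not planned. In the 3g line the larger libraries were the del/+ ones, and these genes were picked for low values in them. Their separation in that line is therefore no separate support. In the 16p11.2 line only 1 wt library was among the smaller ones. When all 13 footprint libraries were scaled together, Fzd8 was at 538 to 1113 CPM in the 7 libraries with 342052 to 422918 counts and at 138 to 296 CPM in the 6 libraries with 462461 to 678130 counts. The first 7 were the 3 wt libraries of the 3g line, the 3 del/+ libraries of the 16p11.2 line and 1 of its wt libraries (wt animal 1 of that line). The latter had 722 CPM of Fzd8, whereas the other 3 wt libraries of its line had 138, 182 and 203 CPM. Tex52 was likewise at 1060 to 1469 CPM in the 7 smaller libraries and at 282 to 657 CPM in the 6 larger ones. Sertad4 was at 187 to 955 CPM in the smaller and 107 to 192 CPM in the larger, so that its ranges overlapped narrowly. Olfr1029 did not separate in this way, with 274 to 1055 CPM in the smaller and 115 to 634 CPM in the larger, and neither did Cdk5rap1 (228 to 631 and 123 to 464 CPM), Kdr (171 to 618 and 125 to 289 CPM) or Usp31 (33.5 to 93.8 and 73.5 to 116 CPM). In the 16p11.2 line the small wt library had 525 CPM of Olfr1029, within the 411.5 to 634 CPM of the other wt libraries, whereas the del/+ libraries had 885 to 1055 CPM. In the 16p11.2 line, where the del/+ libraries were among the smaller ones, the log2 fold changes of Fzd8, Tex52 and Olfr1029 were 1.01, 0.88 and 0.86, opposite in sign to those of the 3g line. The part of library size in the Fzd8 result was not tested beyond the thinning, which equalizes totals and leaves CPM as they are.

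**Figure D2:**
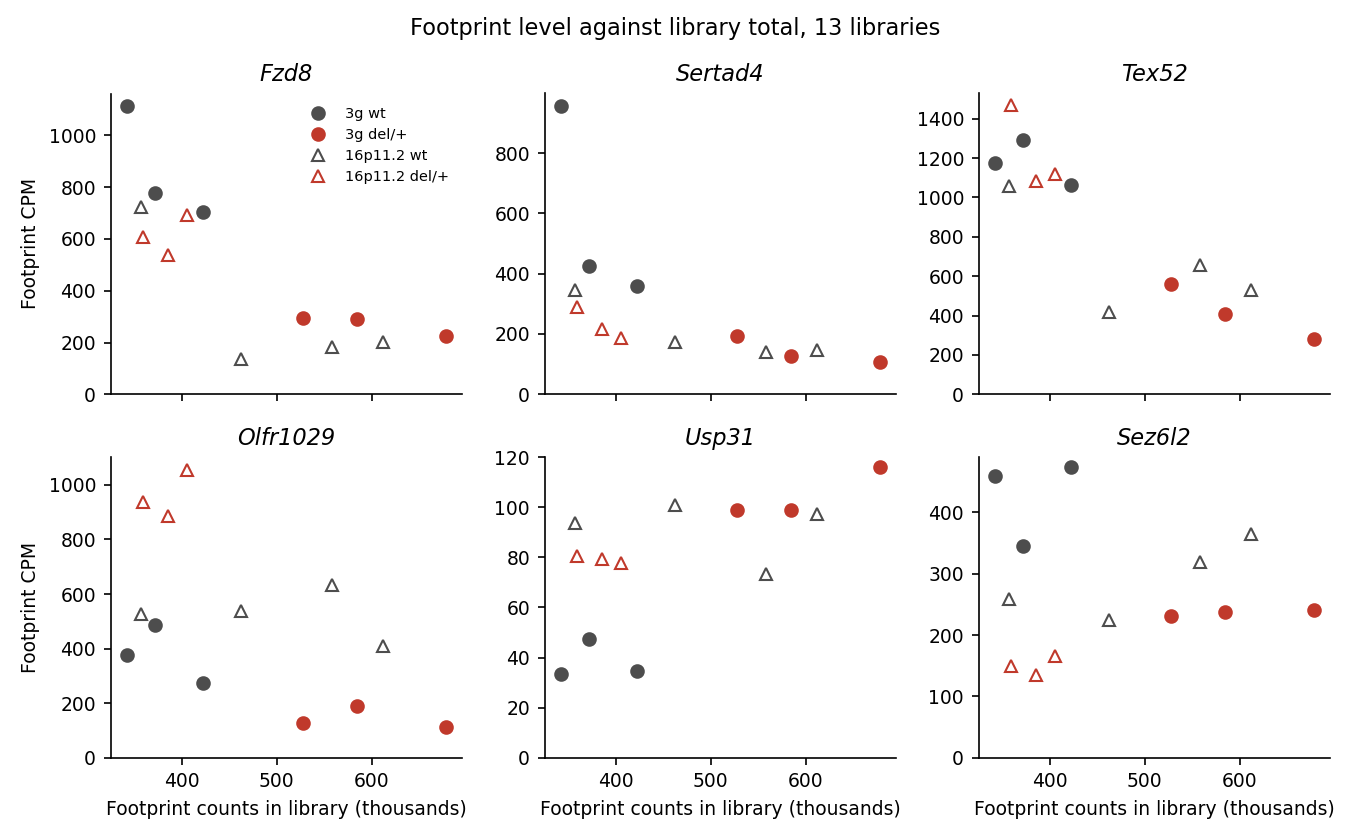
Footprint CPM of 6 genes (13 libraries scaled together) against the total footprint count of the library, with filled circles for the 3g line, open triangles for the 16p11.2 line, grey for wt and red for del/+. Fzd8 and Tex52 were high in the 7 smaller libraries of either genotype and low in the 6 larger ones, whereas Sez6l2 followed genotype within each line.

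Among genes higher in del/+, Usp31, a deubiquitinating enzyme, had the smallest p. It had 40.2, 40.5 and 56.4 CPM in wt and 117, 138 and 117 CPM in del/+, a log2 fold change of 1.44 (SE 0.26, edgeR adjusted p 0.0804), and it was called without wt animal 1 (1.36, adjusted p 0.0429). Its RNA was abundant (128 CPM) and had a log2 fold change of 0.14. In the 16p11.2 line Usp31 had 65.7 to 90.2 CPM in wt and 68.9 to 72.3 CPM in del/+ libraries. Igip followed, with 11.5, 8.10 and 14.1 CPM in wt and 54.0, 35.3 and 43.2 CPM in del/+ (1.94, adjusted p 0.249). The other 8 of the 10 higher genes with the smallest p had adjusted p of 0.275 to 0.414 in edgeR's test. They were Smim20 (1.71), Tmem19 (1.67), Gm20683 (1.82), Atp8a2, a phospholipid flippase (1.32), Mzt1, a part of the gamma-tubulin complex (1.09), Pkia, an inhibitor of protein kinase A (0.93), Rapgef4, a cAMP-activated exchange factor for Rap (0.85), and Fam107a (0.83), with log2 fold changes in parentheses. Gm20683 rested on few counts (12, 2 and 2 in the wt libraries), and without wt animal 1 its log2 fold change was 3.22 and it was called (edgeR adjusted p 0.00421). All 10 had groups that did not overlap, as did 6.88% of all tested genes in this direction. They were picked by p in these same libraries, so this is no separate support.

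Cfap54, a component of motile cilia, was lower in footprints and in RNA. It had 51.7, 59.4 and 50.8 CPM of footprints in wt and 15.8, 15.3 and 8.998 CPM in del/+ (log2 fold change -2.00, edgeR adjusted p 0.0917, and 0.0481 without wt animal 1). Its RNA log2 fold change of -1.39 was called (edgeR adjusted p 0.000603). It was 1 of 3 genes called among 14378 in the RNA of these 6 lysates (0.0209%), beside Ndn (-0.98) and Rpl29 (1.36). In the 16p11.2 line Cfap54 footprints were at 32.8 to 52.3 CPM in del/+ libraries (log2 fold change 0.52, edgeR adjusted p 0.920). The wt libraries of that line had 5.58 CPM in wt animal 1 and 27.3 to 40.4 CPM in the others. The remaining lower genes with the smallest p rested in part on wt animal 1. Cybb, the catalytic subunit of the phagocyte NADPH oxidase, had 3876 CPM in wt animal 1, 232 and 178 CPM in the other wt animals and 104 to 115 CPM in del/+. Reep6 had 1556 CPM in wt animal 1, 37.8 and 36.7 CPM in the other wt animals and 11.3 to 30.6 CPM in del/+. Without wt animal 1 the log2 fold changes of Cybb and Reep6 were -0.92 and -0.90 in place of -3.71 and -4.75, and neither was called. Kctd20 had 86.4 to 175 CPM in wt and 48.6 to 62.9 CPM in del/+, and Pck2, the mitochondrial phosphoenolpyruvate carboxykinase, 33.9 to 80.4 and 11.3 to 16.2 CPM. Their adjusted p were 0.231 to 0.249 in edgeR's test, and without the genes that were 8-fold higher in 1 library 6 genes were called (Fzd8, Sertad4, Tex52, Olfr1029, Cdk5rap1 and Usp31).

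The direction of change followed the RNA level of the gene. Among 108 tested genes with a mean under 2 CPM in the lysate RNA the median footprint log2 fold change was -0.62, with 31 genes lower and 1 higher at an unadjusted p under 0.05. It rose through -0.25 (540 genes at 2 to 10 CPM), -0.07 (4025 genes at 10 to 50 CPM) and 0.08 (2419 genes at 50 to 200 CPM) to 0.20 among 461 genes over 200 CPM, of which 60 were higher and 2 lower at that p. In the RNA itself these medians lay between -0.03 and 0.06. The footprint medians were -0.54, -0.30, -0.09, 0.06 and 0.20 after thinning, and -0.40, -0.23, -0.05, 0.08 and 0.19 without wt animal 1. In the 16p11.2 line they ran the other way, from 0.39 and 0.29 in the lowest classes to -0.09 in the highest. Only 108 of 5884 genes under 2 CPM passed the filter, so the lowest class describes the genes with many footprints for their RNA. A gene can pass that filter through the libraries of 1 genotype alone, so the numbers lower and higher in this class depend on it. Among genes chosen by a mean of 10 or more counts, the medians of the log2 ratio of group means were -0.70 (126 genes), -0.24, -0.06, 0.07 and 0.20. High counts in 1 group can raise that mean too.

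**Figure D3:**
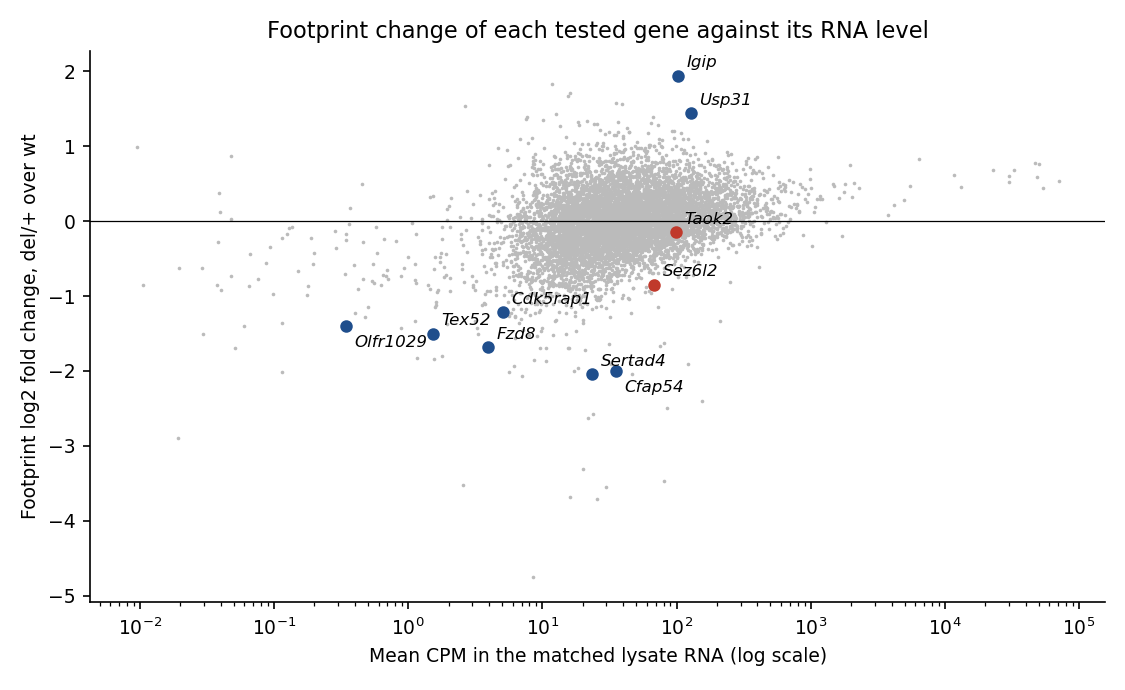
Footprint log2 fold change of del/+ over wt for each tested gene against its mean CPM in the lysate RNA (log axis), with 10 named genes marked. Genes of scarce RNA lay mostly below 0 and abundant ones mostly above it, and Sez6l2 lay below most genes of its RNA level.

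**Figure D4:**
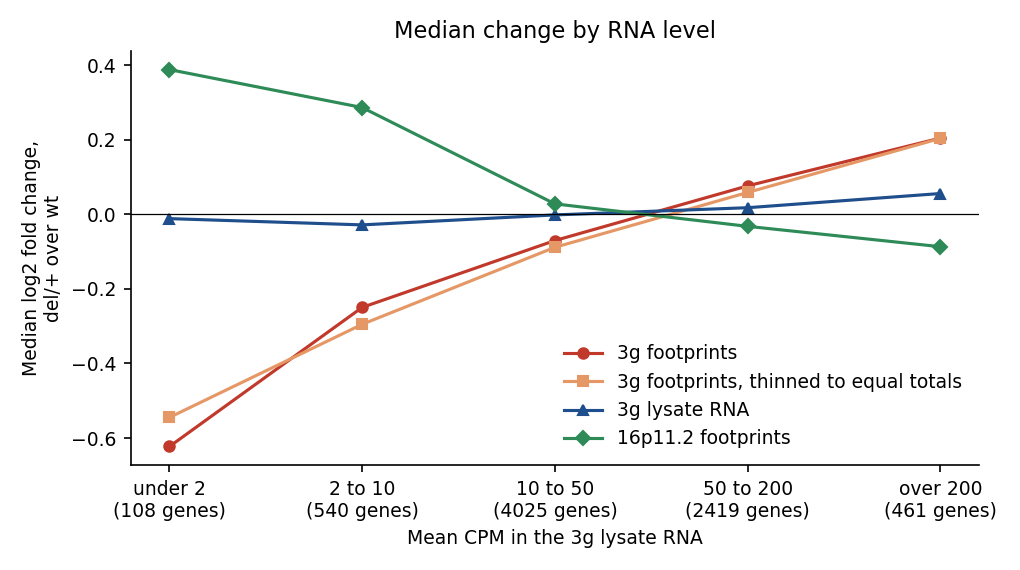
Median log2 fold change of del/+ over wt in 5 classes of mean lysate RNA level, for 3g footprints as deposited and thinned to equal totals, 3g lysate RNA and 16p11.2 footprints. The 3g footprint medians rose from -0.62 to 0.20 with RNA level, those of the RNA stayed near 0, and those of the 16p11.2 footprints fell from 0.39 to -0.09.

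The libraries differed in the same measure. The 4827 genes with under 1 CPM in the lysate RNA took 2.56%, 1.16% and 1.84% of footprint counts in wt animals 1 to 3, and 1.07%, 1.14% and 1.05% in del/+ animals 1 to 3. All del/+ libraries lay below all wt libraries, wt animal 2 by little. In the lysate RNA of the same animals that share was 0.119 to 0.147%, with the wt animals at 0.119 to 0.137%. In the 16p11.2 footprints it was 1.42 to 1.90% in the 3 del/+ libraries (359056 to 405765 counts) and 1.04 to 1.55% in the 4 wt libraries (357221 to 611890 counts). The part of this share in the gene-level results was not tested.

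No gene list had a called member. For the lists below, the background is the 3.50% of all tested genes that were higher and 4.48% that were lower at an unadjusted p under 0.05, and the median of -0.01. The kinases and scaffolds around Taok2 (13 of 19 tested) had a median of 0.13. Mapk10, the neuronal JNK3, had 105 to 149 CPM in wt and 167 to 187 CPM in del/+ (0.52, unadjusted p 0.0325, edgeR adjusted p 0.555). Taok1, another TAO kinase, had 165 to 195 CPM in wt and 200 to 261 CPM in del/+ (0.36, adjusted p 0.696). Of the SEZ6 family, Sez6 was at 1168 to 1479 CPM in wt and 1197 to 1214 CPM in del/+ (-0.13), and Sez6l at 159 to 244 and 167 to 196 CPM (-0.18). Both overlapped, unlike Sez6l2. Of the decay factors, 12 of 16 were tested, with a median of -0.09. Upf1, the helicase of nonsense-mediated decay, had 70.2 to 126 CPM in wt and 47.3 to 56.7 CPM in del/+ (-0.81, unadjusted p 0.0135, edgeR adjusted p 0.468), and its value was -0.50 without wt animal 1. Smg5 was at -0.46 without overlap and Smg1, the kinase that acts on Upf1, at 0.26 with overlap, and neither passed at an unadjusted p of 0.05.

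No gene of the translation machinery was called. Of the cytosolic ribosomal proteins, 51 of 79 were tested, the median was 0.04, 1 was lower and none higher at an unadjusted p under 0.05, and Rplp1 and Rpl4 were at 0.00 and 0.08. Of 38 tested translation factors (median 0.05), 3 were higher and 1 lower at that p. All del/+ libraries lay above all wt libraries for 7 of them and below for 2 (6.88% and 6.42% of all tested genes). Of tested genes over 200 CPM in the lysate RNA, 92 of 461 lay above in this way. The summed level of the list was 3045 to 3542 CPM in wt and 3632 to 3905 CPM in del/+, without overlap. The elongation factor Eef2 had 293 to 346 CPM in wt and 347 to 392.4 CPM in del/+ (0.18), Eif4a2, a helicase of initiation, 141 to 208 and 221 to 267 CPM (0.47, unadjusted p 0.0503), and Eif4g2 152 to 243 and 234 to 324 CPM (0.52). The 28 tested proteasome subunits had a median of -0.08 and none passed at an unadjusted p of 0.05. Of 9 tested genes of the integrated stress response (median 0.08), Ppp1r15b, a regulatory subunit of the phosphatase that restores initiation, was higher at an unadjusted p of 0.0198 (0.86, edgeR adjusted p 0.511), and the transcription factor Atf4 was at 0.22.

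Mitochondrially encoded mRNAs, which are read by the ribosomes of the mitochondrion, gave a large and uneven share of the footprints. It was 10.4%, 26.7% and 15.7% in wt animals 1 to 3 and 32.7%, 21.8% and 22.5% in del/+ animals 1 to 3, so that the groups overlapped through wt animal 2. All 13 such genes had positive log2 fold changes (median 0.60, and 0.29 without wt animal 1), and none passed at an unadjusted p of 0.05 or had groups without overlap. mt-Co1 ranged from 22229 to 58140 CPM in wt and from 41372 to 74455 CPM in del/+ (0.54, 95% interval -0.51 to 1.59), mt-Nd1 was at 0.76, and mt-Cytb and mt-Atp8 were both at 0.45. The 13 genes moved together from library to library and do not count as 13 observations. Their RNA had a median of -0.02 and took 37.7 to 45.2% of RNA counts. The 76 nuclear genes of oxidative phosphorylation had a median of 0.12, with 4 higher and none lower at an unadjusted p under 0.05. Cox4i1, a subunit of cytochrome c oxidase, was at 223 to 305 CPM in wt and 316 to 331 CPM in del/+ (0.22).

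Synaptic genes had values of both signs. Of the 25 genes of vesicle release, all tested, 19 had positive values and 1 was higher at an unadjusted p under 0.05. Their median was 0.20 in footprints and 0.17 in RNA. All del/+ libraries lay above all wt libraries for 6 of them, as for 6.88% of all tested genes. That share rose with RNA level. It was 230 of 2419 tested genes at 50 to 200 CPM in the lysate RNA, and 92 of 461 over 200 CPM, where Cplx2 and Snap25 lay. Cplx2, a complexin, had 1242 to 1416 CPM in wt and 1422 to 1775 CPM in del/+ (0.31), and Snap25, a SNARE protein, 680 to 929 and 885 to 1098 CPM (0.25). The 34 tested glutamate receptors and scaffolds had a median of 0.03. Grin1, the obligatory NMDA receptor subunit, was at 883 to 993 CPM in wt and 650 to 765 CPM in del/+ (-0.40), without overlap, and Camk2a at -0.34 with overlap. Of 13 activity-induced genes none passed at an unadjusted p of 0.05 (median 0.00), with Homer1 at 0.24 and Arc at -0.39.

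Markers of striatal cell types showed no called difference. The pan-projection-neuron list had a median of -0.01 (20 tested), with Arpp21 at 0.32, Pde10a at -0.09 and Adcy5 at -0.20, and 1 member was lower at an unadjusted p under 0.05 and none higher. Direct-pathway markers had a median of 0.11 (7 tested), with Drd1 at 83.3 to 205 CPM in wt and 126 to 221 CPM in del/+, Tac1 at 0.25 and Chrm4, a muscarinic receptor, at -0.56 (unadjusted p 0.0626). Indirect-pathway markers had a median of -0.03 (8 tested), with Penk at -0.16, Adora2a at -0.03, Drd2 at 0.42 and the transcription factor Sp9 at -0.52 (unadjusted p 0.0340). Interneuron markers had a median of 0.32 (7 tested, none with an unadjusted p under 0.05), with Sst at 195 to 339 CPM in wt and 200.3 to 250.2 CPM in del/+ (-0.29) and Pvalb, on 5 to 30 counts a library, at 0.89. Markers of cortical excitatory neurons had a median of 0.22 (8 tested) and a summed level of 1239 to 2044 CPM in wt and 1589 to 1974 CPM in del/+, with Slc17a7, the vesicular glutamate transporter of cortical neurons, at 273 to 735 and 459 to 727 CPM (0.44, and 0.93 without wt animal 1).

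No non-neuronal marker was called either. Oligodendrocyte markers summed to 3184 to 4238 CPM in wt and 2950 to 3803 CPM in del/+ (median -0.19, 12 tested, 2 lower at an unadjusted p under 0.05), with Mbp at -0.19 and Mobp at 0.29. Astrocyte markers summed to 4387 to 6106 and 4775 to 6143 CPM (median -0.05, 11 tested), with Slc1a2 at 0.21. Microglial markers summed to 436 to 713 CPM in wt and 419 to 463 CPM in del/+ (median -0.23, and -0.44 without wt animal 1, 8 tested), with Ctss at -0.87 (unadjusted p 0.0109). Endothelial markers summed to 402 to 904 CPM in wt and 308 to 387 CPM in del/+ (median -0.03, 5 tested), Kdr included, whose footprints exceeded its RNA by 93.9 times. The 4 tested globin genes had a median of 0.69 in footprints and 0.36 in RNA, and 3 were higher at an unadjusted p under 0.05. The summed level of the blood markers was 322 to 475 CPM in wt and 405 to 867 CPM in del/+, with del/+ animal 3 highest for each of Hba-a1 (0.32), Hba-a2 (0.83), Hbb-bs (0.62) and Hbb-bt (0.76). The part of blood left in the tissue in these differences was not tested.

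**Figure D5:**
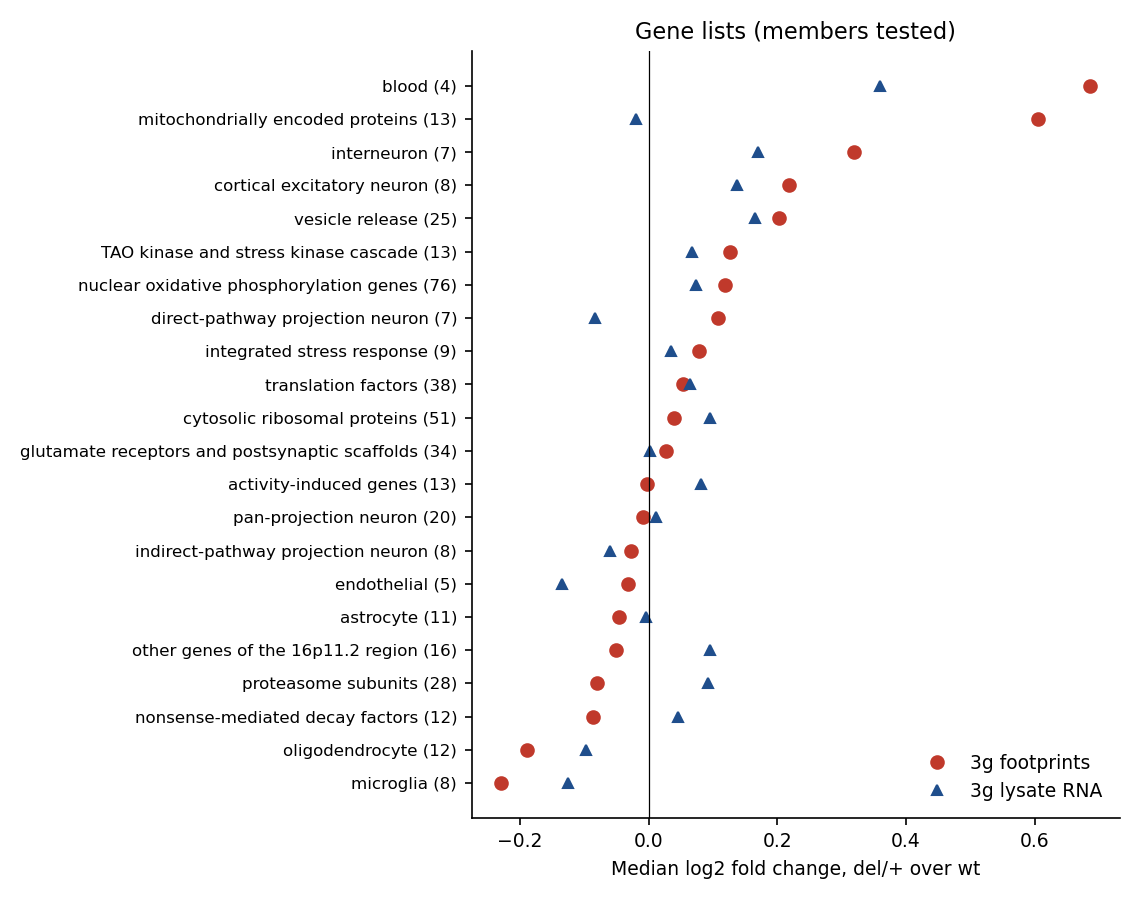
Median log2 fold change of del/+ over wt for each gene list with at least 4 tested members, in 3g footprints (circles) and 3g lysate RNA (triangles), with the number of members tested. The medians of globin genes (0.69) and mitochondrially encoded proteins (0.60) lay highest, and the others between -0.23 and 0.32.

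Footprints were also set against RNA of the same animals, to ask whether ribosome load changed apart from mRNA. No gene of 15137 passed an adjusted p under 0.05 for the interaction of genotype and assay (0%), with 1161 at an unadjusted p under 0.05 and 26 called by DESeq2. The 2 libraries of an animal come from the same lysate, and with the animal as a block 10 genes were called by edgeR. Lower in footprints relative to RNA were Fzd8, Sertad4, Tex52, Cybb, Reep6 and 3 genes that the naming rule did not cover (Dap3, Galk2 and Washc1), and higher were Usp31 and Igip. Footprints of Cybb and Reep6 were far higher in wt animal 1 (1350 and 542 counts) than in any other library (at most 86 and 17). Without 1 animal at a time the number of genes called in the blocked fit ran from 3 to 111. It was 3 without del/+ animal 2 or 3, 38 without wt animal 1, 51 without wt animal 3 and 111 without wt animal 2.

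The 16p11.2 footprints gave 7 called genes of 5964 (0.117%), Aldoa and Maz among them. The test of the difference between the lines called 13 of 7692 genes (0.169%). Of these, 12 had a higher log2 fold change in the 16p11.2 line, including Fzd8, Tex52, Olfr1029, Sertad4, Cdk5rap1, Cybb and Kdr, and Usp31 had a lower one. The deeper libraries were the del/+ ones in the 3g line and 3 of the 4 wt ones in the 16p11.2 line, so that in this test, too, genotype and depth cannot be told apart.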

How the data were processed

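The authors deposited footprint and lysate RNA counts for 18411 genes, as whole numbers without normalization. The submitters' processing notes name Bowtie2 and the genome build mm39, and the counter and annotation are not given in the sources used here. Ribosome footprints map to short stretches, so that reads of similar genes may be split or lost. Extraction text in the labels names another species than the mouse source, and the molecule label is polyA RNA. Symbols were found for 18377 gene IDs. The paper does not describe these libraries, and nothing in the labels says more than that each came from a separate animal, so p-values measure the spread between these animals.

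Genes passing edgeR's filterByExpr were scaled by TMM (edgeR 4.0.16, R 4.3.3) and compared by the quasi-likelihood test with Benjamini-Hochberg adjustment over all genes tested, with a threshold of 0.05. The standard error is the log2 fold change over the root of F. CPM of the targeted genes were also tested by exact permutation of the 6 libraries, 2-sided. Intervals of shares and ratios cover counting error only, as reads carry no molecular identifiers here. Scripts were tested on simulated data. Alternatives were DESeq2 (1.42.0), other scalings and filters, 20 draws of counts thinned to 342052, other thresholds, the 13 footprint libraries in 1 fit and leaving out each library. Footprint and RNA libraries of an animal deviated together (correlation of deviations from the group means 0.0766 to 0.294 with the own animal, at most -0.00308 with others of the genotype, over 7493 genes). Deviations within a group cancel out, so a positive value with the own animal makes those with the others negative on average. The negative values are therefore no separate support.

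Named are the targeted genes, the region's genes with a mean of 20 or more footprint counts, the called gene, the 10 genes of smallest p in each direction and, from each list, the most highly counted members, of which 1 is not reported here. Dap3, Galk2, Washc1, Ndn and Rpl29 were named after their values were seen. Members and lists were chosen with earlier results of these data known. The histone list, with 1 of 55 names in the table (H1f0, log2 fold change -0.89), was not assessed. Other series tables were not used here.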

Additional observations from a re-analysis of the deposited data

Results flagged for a closer look

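Results are given here for which the 3g and 16p11.2 lines differed in footprint change, or for which 1 library stood far from its group. The change in the 16p11.2 line minus that in the 3g line, on the log2 scale, was 2.68 for Fzd8 (adjusted p 0.0142), 2.25 for Sertad4 (0.0252), 2.38 for Tex52 (0.00336), 2.26 for Olfr1029 (0.00123), 1.56 for Cdk5rap1 (0.0200), 2.19 for Kdr (0.0180), 3.97 for Cybb (0.0346) and -1.64 for Usp31 (0.0375), in edgeR's test of the interaction of genotype and line. Cybb rested on wt animal 1 of the 3g line. Fzd8 and Tex52 separated by library total across both lines, as the report gives. Sertad4 overlapped narrowly, with 186.8 CPM as the lowest smaller library and 191.8 CPM as the highest larger one. Olfr1029, Cdk5rap1, Kdr and Usp31 did not separate.

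Dixon's ratio, the gap of an extreme library to its neighbour over the range of the group, was above its 95% critical value in the 4 wt footprint libraries of the 16p11.2 line for Fzd8 (0.888), Cdk5rap1 (0.846), Rapgef4 (0.836) and Sertad4 (0.8291). For Fzd8 the library apart was that of wt animal 1 of that line, the smallest of the 4. Of 41 such groups examined, chance gives about 1 in 20. Groups of 3, as in the 3g line, were not examined.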

How the results depend on the processing

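The number of called 3g footprint genes (1 as reported, and 1 with RLE normalization or with only genes of 10 or more CPM in the lysate RNA) was 13 with DESeq2, 2 with library totals only, 127 without a filter, 6 with at least 10 counts in every library, 3 after thinning (1 to 5 over 20 draws), 22 with all 13 footprint libraries in the fit, 6 without genes high in 1 library, 7 at an adjusted p under 0.10 and 602 at an unadjusted p under 0.05, and it ran from 0 to 24 when 1 library was left out. The alternatives on genes high in 1 library and on RNA level were chosen after seeing the data. Of the 127 genes called without a filter 112 were lower. Sez6l2 kept a negative value throughout (-0.97 to -0.78 without 1 library) and was called by DESeq2 alone (-0.83, adjusted p 0.0201 against 0.0849 to 0.977 in the other alternatives). Taok2 also stayed negative and uncalled.

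In the RNA the number was 3 as reported, 13 with DESeq2, 9 without a filter, 707 at an unadjusted p under 0.05 and 3 to 12 without 1 library. In the 16p11.2 footprints it was 7, then 21, 43, 367 and 2 to 13 in that order. For the difference between lines it was 13, then 34, 119, 686 and 4 to 55. For the interaction of genotype and assay it was 0, then 26 with DESeq2, 1161 at an unadjusted p under 0.05 and 10 with the animal as a replicate block (3 to 111 without 1 animal). The blocked fit was run for this interaction only, since del/+ and wt animals carry different numbers and nothing pairs them.

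Of 1148 values of 78 named genes under alternatives, 1050 kept their sign and their side of the threshold, 66 became calls, 3 (Fzd8 without 1 del/+ animal) lost the call and 29, of 11 genes, changed sign. These were, without a filter, Aldoa (0.0091), Maz (0.017) and Adora2a (0.030), with library totals only Prrt2 (-0.038) and Rplp1 (-0.046), and for Rplp1 also RLE normalization (-0.00017), thinning (-0.081) and only genes of 10 or more CPM in the RNA (-0.013). Without 1 library the values ran from -0.19 to 0.087 for Aldoa, -0.18 to 0.085 for Maz, -0.14 to 0.22 for Prrt2, -0.11 to 0.30 for Cdipt, -0.14 to 0.14 for Rplp1, -0.060 to 0.29 for Rpl4, -0.19 to 0.37 for Drd1, -0.43 to 0.13 for Penk, -0.15 to 0.082 for Adora2a, -0.22 to 0.0050 for Pde10a and -0.057 to 0.55 for Hba-a1. Of 330 medians of gene lists, 9 moved by over 1 SD between libraries. The cause of these shifts was not tested.

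With a median standard error of 0.34, which holds both counting error and the spread between animals, most log2 changes under about 0.72 could not be told from 0 even without adjustment.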
